A study of Rattus norvegicus with 167 samples.

Results

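The comparison concerned the lesion site of the transected rat spinal cord 10 days after surgery, in animals that had received a tube of chitosan carrying neurotrophin-3 in the gap (NT3) and in animals whose gap was left empty (lesion control, LC). Its members were the 6 arrays labelled as the middle segment on day 10 with these treatments, 3 NT3 and 3 LC, beside 161 other arrays in the series. All were from adult female Wistar rats in which a piece of the thoracic cord 5 mm long had been cut out, and each array read RNA from the 5 mm of tissue at that site. Uninjured cord (3 arrays) and the lesion site of the same treatments on days 3, 20, 30, 60 and 90 (30 arrays) served for orientation. A tube without NT-3 (ET) was measured at the lesion site on day 3 alone among the arrays used here, so the tube and its NT-3 load cannot be told apart on day 10. The labels do not say that replicates came from separate animals, and p-values measure the spread between arrays, which may be technical.

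Neurotrophin-3 is a secreted growth factor that acts mainly through the receptor TrkC (Ntrk3) and supports proprioceptive sensory neurons and spinal axons. Chitosan, a sugar polymer made from chitin, degrades slowly in tissue and can release a bound protein over weeks. A transected cord loses its neurons and glia at the cut, and the gap fills with blood-borne macrophages, fibroblasts, new vessels and collagen. Chemokines made there call in monocytes and neutrophils, and the balance between inflammatory cells, vessels and matrix shapes the scar.

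Values are RMA levels on the log2 scale, and a difference is the NT3 mean minus the LC mean, so 1 stands for a doubling in NT3 and -1 for a halving. Tests were two-sided contrasts of limma with Benjamini-Hochberg adjustment over 11918 genes, and a gene with adjusted p below 0.05 is called. The arrays of both groups had medians from 7.12 to 7.16. Correlations within NT3 ran from 0.987 to 0.994, within LC from 0.984 to 0.993, and between the groups from 0.982 to 0.987. Neuron genes, which define the labelled tissue, were far below uninjured cord in both groups: the mean of 22 of them lay between 7.84 and 8.66 in NT3 and between 7.90 and 8.56 in LC, against 11.85 to 11.98 in uninjured cord. LC replicate 1 carried skeletal muscle RNA at levels near NT3, LC replicate 2 was low in astrocyte and myelin genes (Gfap 10.95, against 12.90 and 12.76 in the other LC arrays), and the excess of the 3-prime over the 5-prime beta-actin probe set, which reflects RNA quality, ran from 1.05 to 1.24 in NT3 and from 0.92 to 1.15 in LC. In bulk tissue fewer cells of a type and less RNA per cell cannot be told apart.

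Of the 11918 genes, 633 were called (5.31%), 294 higher in NT3 (2.47%) and 339 lower (2.84%). At least 2-fold differences were found for 64 of the higher and 45 of the lower genes. The median difference over all genes was 0.02. The 3 NT3 arrays lay wholly above or below the 3 LC arrays in 2522 genes (21.2%), and in 601 of the 633 called genes. Among 5619 tested probe sets without a single gene symbol, 187 were called (3.33%), 125 higher and 62 lower. The lower side of the named genes was led by chemokine genes with Mmp3 and Arg1, the higher side by muscle, cartilage, matrix and growth-control genes. Which cells made these RNAs was not tested. The number of calls rested on single arrays: it was 308 without NT3 replicate 3, 315 without LC replicate 3 and 830 without LC replicate 1.

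**Figure D1:**
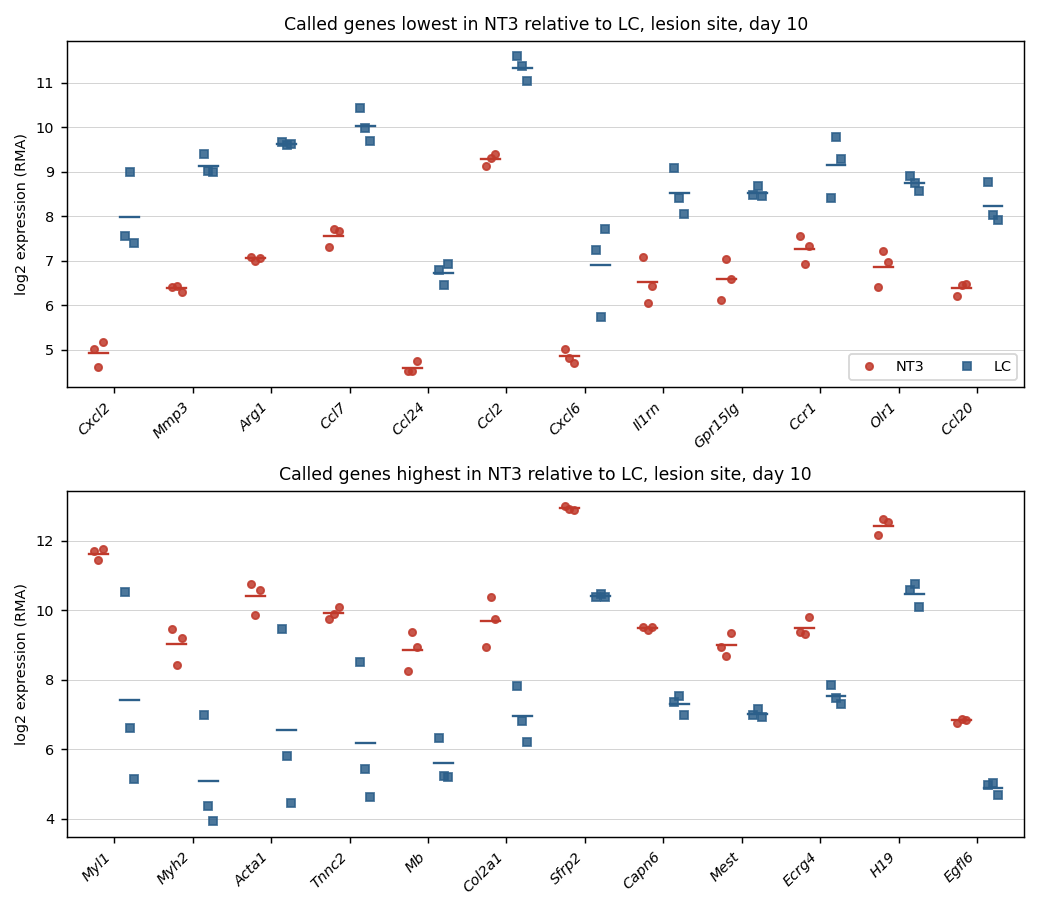
Log2 expression (RMA) of the 12 called genes with the largest negative (top) and the 12 with the largest positive difference (bottom) among those without overlap of the groups; each point is 1 array, short lines are group means, NT3 left of LC. The 3 LC points of Myl1, Myh2, Acta1 and Tnnc2 are spread over several log2 units, while Sfrp2 and Arg1 have tight groups.

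Chemokine genes were the clearest group on the lower side. Of 23 tested cytokine and chemokine genes 11 fell and 0 rose, with a median difference of -0.93 against 0.02 over all genes, and the mean of the list was 8.43 to 8.58 in NT3, 9.36 to 9.73 in LC and 6.67 to 6.74 in uninjured cord. With any one of the 6 arrays left out, 9 to 11 members were called. Cxcl2, a chemokine that draws neutrophils, stood at 5.01, 4.61 and 5.17 in NT3 and at 7.54, 9.0 and 7.40 in LC. That is 8.29-fold lower in NT3 (difference -3.05, SE 0.42, adjusted p = 1.0e-05), with NT3 near the uninjured mean of 4.60. Ccl2, the main monocyte attractant, read 9.12, 9.30 and 9.40 in NT3 against 11.59, 11.38 and 11.03 in LC (difference -2.06, SE 0.19, adjusted p = 1.5e-08). Both groups stayed far above its uninjured mean of 5.09. Its neighbour in function Ccl7 read 7.31, 7.71 and 7.66 in NT3 against 10.44, 9.97 and 9.68 in LC (difference -2.47, SE 0.23, adjusted p = 1.5e-08). Ccl20, which draws cells with the receptor CCR6, was 3.63-fold lower (difference -1.86, SE 0.45, adjusted p = 0.010). The other members that fell were Cxcl1 (-1.68), Il1b (-1.67), Ccl3 (-1.37), Ccl6 (-1.0), Spp1 (-0.80), Il33 (-0.64) and Il18 (-0.49).

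The fall did not extend to every inflammatory mediator tested. Tnf (-0.19, adjusted p = 0.41), Tgfb1 (-0.21), Cxcl12 (-0.11) and the T cell attractant Ccl5 (0.29) were not called. The acute-phase cytokine gene Il6 read lower in all 3 NT3 arrays than in LC, yet missed the threshold (-1.24, adjusted p = 0.082). Among the 12 lowest genes of the whole table stood 2 more chemokine genes that the list did not hold. The eosinophil attractant Ccl24 read 4.53, 4.51 and 4.73 in NT3 against 6.80, 6.45 and 6.92 in LC (difference -2.13, SE 0.34, adjusted p = 9.8e-05), level with the uninjured mean of 4.48. Cxcl6, another neutrophil attractant, read 5.02, 4.81 and 4.70 in NT3 against 7.24, 5.74 and 7.71 in LC (difference -2.05, SE 0.27, adjusted p = 5.9e-06), the LC array at 5.74 being replicate 2. The NT3 values of Ccl24 and Cxcl6 were low for the array. In the fit of the 6 arrays alone both genes lay under the filter on low values and were not tested. The chemokine receptor gene Ccr1, found on monocytes and neutrophils, read 7.55, 6.92 and 7.33 in NT3 against 8.41, 9.77 and 9.27 in LC (difference -1.88, SE 0.23, adjusted p = 2.3e-06). Its product binds CCL7 and CCL3, whose genes were also called lower in NT3. The 12 lowest genes were chosen among those without overlap of the arrays, so their separation was a condition of the choice.

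The promoters of these chemokine genes are shown because nuclear factor kappa B is the textbook activator of the family. The 150 bases before the annotated start of 4 of the called genes, from RefSeq on build GRCr8, read 5′ to 3′ on the gene's strand, with matches to the kappa B consensus of 10 letters in capitals:
Cxcl2 (chr14:17467256-17467405, minus strand): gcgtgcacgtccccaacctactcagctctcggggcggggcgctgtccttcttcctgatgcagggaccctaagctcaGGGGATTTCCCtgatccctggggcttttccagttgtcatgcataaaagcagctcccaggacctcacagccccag
Ccl7 (chr10:67513945-67514094, plus strand): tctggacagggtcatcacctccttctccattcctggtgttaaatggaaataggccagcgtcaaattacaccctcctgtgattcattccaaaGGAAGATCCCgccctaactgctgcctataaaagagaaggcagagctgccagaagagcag
Cxcl1 (chr14:17479322-17479471, minus strand): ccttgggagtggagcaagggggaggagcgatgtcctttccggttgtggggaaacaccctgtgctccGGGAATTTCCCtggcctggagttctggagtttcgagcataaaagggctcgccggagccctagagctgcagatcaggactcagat
Ccl20 (chr9:91837009-91837158, plus strand): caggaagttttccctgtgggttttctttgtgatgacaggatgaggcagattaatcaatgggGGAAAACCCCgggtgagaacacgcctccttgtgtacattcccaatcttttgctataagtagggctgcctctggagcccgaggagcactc
Both strands were searched, since the consensus does not read alike on both, and overlapping matches were merged. Promoter sequences were found for 9 of the 11 called genes, 10 promoters in all, and 4 of the 10 held a match in the window from 250 bases before to 50 bases after the start. In the whole tested list 8 of 19 promoters held one. Of all 33469 promoters 7.5% held a match, and of the 11130 promoters of tested genes 10.0%. A match describes the letters of the window and does not show that a factor binds there.

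Arg1 and Il1rn were among the 12 lowest genes together with the chemokines. Arginase-1 (Arg1), which turns arginine into ornithine and marks repair-type macrophages in rodents, read 7.09, 6.99 and 7.07 in NT3 against 9.67, 9.60 and 9.62 in LC. It was 5.98-fold lower (difference -2.58, SE 0.30, adjusted p = 8.1e-07), and NT3 lay under the uninjured mean of 7.72. Il1rn, the natural antagonist of the interleukin-1 receptor, read 7.08, 6.05 and 6.42 in NT3 against 9.09, 8.41 and 8.05 in LC (difference -2.0, SE 0.35, adjusted p = 2.9e-04). Of 9 macrophage polarisation genes 3 fell and 0 rose, the others being the co-stimulatory gene Cd86 (-0.80) and the chitinase-like gene Chi3l1 (-0.82), whose call was lost without NT3 replicate 2 or any 1 of the LC arrays. Chi3l1 had a mean of 8.58 in NT3 and 9.40 in LC, both below its uninjured mean of 10.06. Nos2, the marker of classical activation, was at -0.01 (adjusted p = 0.98). So the called members included markers of both activation types.

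Genes of macrophages fell in part, the markers Itgam and Adgre1 among them, while the markers Cd68 and Aif1 did not pass the test. Of 21 tested microglia and macrophage genes 7 fell and 0 rose (median -0.35), and 6 to 10 were called with 1 array left out. All 21 differences were negative, against 5504 of 11918 over all genes. Cd14, the co-receptor for bacterial lipopolysaccharide, read 10.30, 10.73 and 10.38 in NT3 against 11.84, 11.72 and 11.70 in LC (difference -1.28, SE 0.17, adjusted p = 5.9e-06). Tlr2, a pattern receptor for bacterial lipoproteins, was 2.08-fold lower (difference -1.06, SE 0.13, adjusted p = 9.7e-07), as were the immunoglobulin receptor genes Fcgr3a (-1.14) and Fcgr2b (-0.97), the integrin gene Itgam (-0.95), Adgre1 (-0.77) and the fractalkine receptor gene Cx3cr1 (-0.65). By contrast Cd68, a lysosomal protein of all macrophages, read 12.18, 12.64 and 12.47 in NT3 against 12.27, 12.53 and 12.59 in LC (difference -0.03, SE 0.15, adjusted p = 0.95). Aif1, which encodes IBA1, read 10.69, 11.46 and 11.27 in NT3 against 11.70, 11.14 and 11.35 in LC (difference -0.25, SE 0.22, adjusted p = 0.61). Both were well above uninjured cord (6.54 and 9.53) in either group.

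Genes of lipid handling lay mostly on the lower side, with 16 of 20 differences negative in the list of lipid-laden phagocytes. Over all genes 5504 of 11918 were negative. The list mean was 11.62 to 11.82 in NT3 and 11.75 to 12.09 in LC, so the groups overlapped. Olr1, a scavenger receptor for oxidised lipoprotein, was among the 12 lowest genes, with 6.40, 7.21 and 6.97 in NT3 against 8.90, 8.74 and 8.56 in LC (difference -1.87, SE 0.27, adjusted p = 1.8e-05). Of 20 genes of lipid-laden phagocytes 2 fell, the droplet coat gene Plin2 (-0.69) and the lipase gene Lpl (-1.09), and 1 rose, the lipid-sensing receptor gene Pparg (0.72). Over all genes 2.84% fell and 2.47% rose. In the fit of the 6 arrays alone 0 of 19 members were called, and Pparg lay under the filter on low values. The call of Lpl was lost in 4 of the 6 fits with 1 array left out (without NT3 replicate 1 or 3 or LC replicate 2 or 3), and that of Pparg in 5 (all save the one without NT3 replicate 1). Gpnmb (-0.05), Apoe (0.10) and Ctsd (-0.10), typical of foam cells, were not called. Gpr15lg, which encodes a ligand of the receptor GPR15 and is known from skin and gut in mouse and human, read 6.12, 7.03 and 6.59 in NT3 against 8.47, 8.67 and 8.45 in LC (difference -1.95, SE 0.32, adjusted p = 1.3e-04).

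Some genes of complement, antigen presentation and T cells fell. In the complement list 4 of 11 fell and 0 rose, namely C6 (-0.98), properdin (Cfp, -0.77), and the anaphylatoxin receptor genes C5ar1 (-0.73) and C3ar1 (-0.50), and 2 to 3 members were called with 1 array left out. C6 lost its call without NT3 replicate 1 or 2 or LC replicate 1, and C3ar1 without NT3 replicate 1 or 3 or LC replicate 2 or 3. Antigen presentation had 4 of 17 lower and 0 higher, with RT1-DMb (-0.66) and RT1-DMa (-0.60), which load peptides on class II molecules, Tap1 (-0.49) and the class I gene RT1-N3 (-0.38). Only RT1-DMb kept its call in all 6 fits with an array left out, and the count ran from 1 (without NT3 replicate 1 or 3 or LC replicate 1 or 3) to 6 (without LC replicate 2). Class I genes such as RT1-N3 have near-identical copies, so probe sets may share their signal. Of 15 T cell and NK genes 2 fell, Cd8a (9.07 to 9.08 in NT3 against 9.64 to 10.01 in LC, difference -0.80) and Lck (-0.41), and 0 (without NT3 replicate 2 or 3) or 1 were called with 1 array left out. Only 1 of 18 interferon response genes fell, Gbp2 (-0.51), a share near the 5.31% of all genes, and 0 were called without NT3 replicate 2 or 3 or LC replicate 3. Without LC replicate 1 the interferon list had 2 higher and 1 lower. None of the 7 B cell, 7 neutrophil and 4 mast cell genes tested was called. Of the 7 neutrophil genes 4 had positive differences, with the granule gene Camp (1.01) the highest, and 3 had negative ones, with Lcn2 (-0.53) the lowest. In that list 1 gene was called lower without LC replicate 1 and 1 higher in the fit of the 6 arrays alone.

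**Figure D2:**
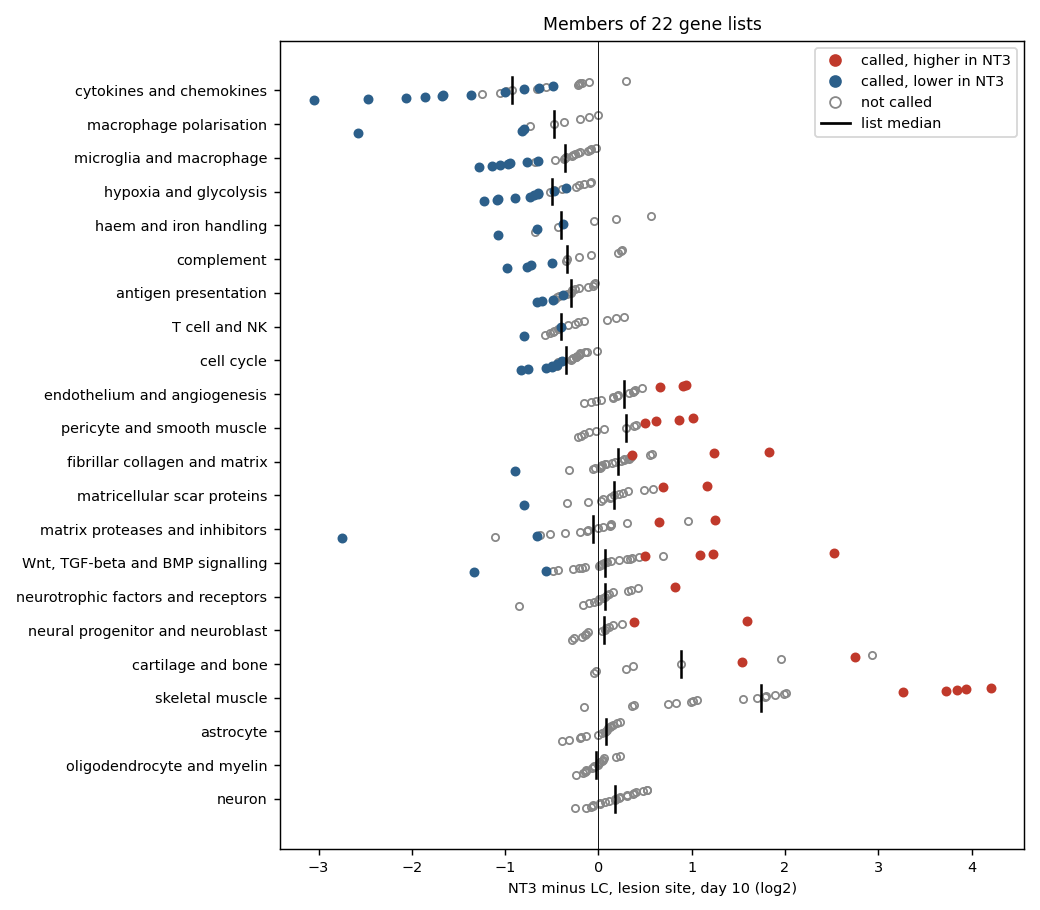
Difference between NT3 and LC on day 10 (log2, x axis) for the tested members of 22 gene lists; filled points are called genes, open points are not, and the black bar is the list median. Cytokine, macrophage, hypoxia and cell cycle lists lie left of 0, while neuron, astrocyte and myelin members lie around 0 with none called.

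Hypoxia and glycolysis genes formed the second large group on the lower side. Of 18 tested members 10 fell and 0 rose (median -0.50), and 9 or 10 were called whichever array was left out. The list mean was 9.80 to 9.95 in NT3, 10.35 to 10.48 in LC and 10.24 to 10.27 in uninjured cord, so that NT3 lay below both. Slc2a1, the main glucose transporter of barrier endothelium and of hypoxic cells, read 9.66, 9.37 and 9.47 in NT3 against 10.28, 10.44 and 10.46 in LC (difference -0.89, SE 0.12, adjusted p = 1.0e-05). Pgk1, a glycolytic kinase, read 11.75, 11.76 and 11.68 in NT3 against 12.29, 12.55 and 12.53 in LC (difference -0.73, SE 0.08, adjusted p = 2.5e-07). Ldha, which makes lactate, read 11.90, 11.65 and 11.73 in NT3 against 12.30, 12.52 and 12.53 in LC (difference -0.69, SE 0.10, adjusted p = 2.1e-05). The oxygen sensor gene Egln3 was 2.35-fold lower (difference -1.23, SE 0.24, adjusted p = 0.0011), and the carbonic anhydrase gene Car9 2.12-fold (difference -1.08, SE 0.29, adjusted p = 0.023, lost without NT3 replicate 2 or 3 or LC replicate 2 or 3). Bnip3 (-0.65), Eno1 (-0.65), Pgam1 (-0.48) and Aldoa (-0.35) completed the called members, with Hmox1, which is described further on. Vegfa, another classical target of hypoxia, was at -0.08 (adjusted p = 0.80), and Hif1a at -0.21.

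Promoter sequences of 3 of these genes are given because hypoxia-inducible factors are known to act on genes of glycolysis through a core element, ACGTG. They cover the 150 bases before the annotated start (RefSeq, GRCr8, 5′ to 3′ on the gene's strand), with ACGTG on either strand in capitals and overlapping matches merged:
Slc2a1 (chr5:138002372-138002521, plus strand): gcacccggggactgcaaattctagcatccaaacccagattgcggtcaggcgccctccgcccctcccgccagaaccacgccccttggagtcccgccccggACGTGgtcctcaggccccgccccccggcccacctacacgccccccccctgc
Ldha (chr1:106507942-106508091, plus strand): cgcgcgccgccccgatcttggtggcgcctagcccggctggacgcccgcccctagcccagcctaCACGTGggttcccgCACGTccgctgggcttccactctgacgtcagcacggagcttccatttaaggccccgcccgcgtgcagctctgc
Bnip3 (chr1:203154963-203155112, minus strand): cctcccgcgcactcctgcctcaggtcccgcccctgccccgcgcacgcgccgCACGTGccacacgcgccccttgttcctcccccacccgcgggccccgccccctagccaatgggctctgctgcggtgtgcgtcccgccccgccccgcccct
Of the 10 called genes 8 had a promoter sequence, and since some have several starts these gave 11 promoters of 300 bases, of which 7 held the core. In the whole tested list it was 10 of 20 promoters. The share was 19.3% among all 33469 promoters and 24.2% among the 11130 of tested genes. These counts describe letters in windows near gene starts and say nothing of binding.

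Haem and iron genes included Hmox1, the inducible haem oxygenase that breaks down haem in erythrophagocytes. It read 11.15, 11.22 and 11.21 in NT3 against 11.78, 12.56 and 12.48 in LC (difference -1.08, SE 0.17, adjusted p = 8.4e-05). With ceruloplasmin (Cp, -0.66) and the haem transporter gene Slc48a1 (-0.38) it made 3 of 8 members lower and 0 higher. Slc48a1 lost its call in each of the 6 fits with 1 array left out, and Cp without LC replicate 3, where 1 member was called. The means of Slc48a1 were 9.14 in NT3 and 9.52 in LC, below its uninjured mean of 10.61. The 6 erythrocyte genes had a median difference of 0.23 and none was called.

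Cell cycle genes had negative differences throughout, and how many were called depended on the arrays used. All 24 tested members were on that side (median -0.34), and 8 fell, among them cyclin A2 (Ccna2), with 7.73, 7.88 and 7.59 in NT3 against 8.34, 8.66 and 8.68 in LC (difference -0.83, SE 0.18, adjusted p = 0.0042). Mki67, the proliferation marker, was at -0.76, Bub1 at -0.57, Cenpf at -0.50, Aurka at -0.50, Mcm6 at -0.45, Cdk1 at -0.45 and Mcm3 at -0.40. The count was 2 without NT3 replicate 1, LC replicate 2 or LC replicate 3, and 11 without LC replicate 1. It was 3 when the mean of the skeletal muscle list entered the fit as a covariate, and 1 in the fit of the 6 arrays alone. Mki67 lost its call without NT3 replicate 1 or 3 or LC replicate 2 or 3. Bub1 lost it without NT3 replicate 1 or LC replicate 2 or 3, and Cenpf without any 1 array save LC replicate 1.

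Some genes of vessels rose in NT3. Of 16 endothelial genes 3 rose and 0 fell (median 0.27). Emcn, a sialomucin of capillary and venous endothelium, read 10.71, 10.60 and 10.61 in NT3 against 9.47, 9.85 and 9.78 in LC (difference 0.94, SE 0.15, adjusted p = 8.1e-05). Plvap, which forms the diaphragms of leaky capillaries, read 9.19, 9.86 and 9.74 in NT3 against 8.80, 8.73 and 8.53 in LC (difference 0.91, SE 0.19, adjusted p = 0.0028). Its uninjured mean was 8.44. Tek, the angiopoietin receptor, was at 0.65 (adjusted p = 0.011, lost without NT3 replicate 1 or 3 or LC replicate 1). Pecam1 (0.38), Kdr (0.21) and Cldn5 (0.15), a tight junction gene of the blood-brain barrier, were not called. Pericyte genes went with them, with 4 of 13 higher and 0 lower (median 0.29). Abcc9 and Kcnj8 encode the parts of the pericyte potassium channel: Abcc9 read 10.25, 10.44 and 10.30 in NT3 against 9.37, 9.27 and 9.31 in LC (difference 1.02, SE 0.15, adjusted p = 2.7e-05), and Kcnj8 was at 0.49. Rgs5, a pericyte regulator of G-protein signals, read 10.44, 10.55 and 10.61 in NT3 against 9.71, 9.74 and 9.55 in LC (difference 0.86, SE 0.16, adjusted p = 8.2e-04). Pdgfrb, the receptor that recruits pericytes, was at 0.62 (lost with its 3 probe sets averaged), and the smooth muscle genes Acta2 (-0.22) and Tagln (-0.19) were not called. With 1 array left out 2 to 4 of these 13 were called, with 2 without NT3 replicate 1 or 3 or LC replicate 3, where Pdgfrb and Kcnj8 lost their calls. With the mean of the skeletal muscle list as a covariate 2 were called and the list median was -0.04.

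Few matrix genes were called, though most had positive differences. Of 24 genes for fibrillar collagens and other matrix 3 rose and 1 fell (median 0.21). The differences of 20 were positive, and 12 did not overlap between the groups (10 above LC and 2 below), against 21.2% of all genes. The main scar collagens Col1a1 (0.28), Col1a2 (0.18) and Col3a1 (0.06) were not called. Elastin (Eln) read 8.82, 9.52 and 9.13 in NT3 against 8.00, 7.05 and 6.93 in LC (difference 1.83, SE 0.25, adjusted p = 9.1e-06). Col14a1, a collagen on the surface of fibrils, read 12.52, 12.17 and 12.30 in NT3 against 10.92, 11.33 and 11.03 in LC (difference 1.24, SE 0.18, adjusted p = 3.2e-05). The proteoglycan gene Bgn was at 0.36 and the cross-linking enzyme gene Loxl2 at -0.90, and both were called in at most 2 of the 6 fits with 1 array left out (Bgn without NT3 replicate 1 or LC replicate 1, Loxl2 without LC replicate 2). Among 15 matricellular genes Ccn3 (12.29, 11.34 and 11.77 in NT3 against 10.61, 10.74 and 10.56 in LC, difference 1.17) and Cthrc1 (0.69) rose and Spp1 (-0.80), osteopontin, fell. The call of Ccn3 was lost without NT3 replicate 1, that of Cthrc1 without NT3 replicate 2 or 3 or LC replicate 2 or 3, and that of Spp1 without NT3 replicate 1 or 3 or LC replicate 2 or 3. Postn (0.12) and Tnc (0.05), abundant in scars, were not called, and neither was any of 11 chondroitin sulfate proteoglycan genes.

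Matrix proteases split. Stromelysin-1 (Mmp3), an enzyme of inflamed fibroblasts that cuts many matrix proteins, read 6.40, 6.42 and 6.30 in NT3 against 9.41, 9.0 and 8.98 in LC, 6.74-fold lower (difference -2.75, SE 0.56, adjusted p = 0.0017). The urokinase gene Plau was at -0.66 and lost its call without NT3 replicate 1 or 3 or LC replicate 2 or 3. Gelatinase A (Mmp2) read 12.06, 12.15 and 12.17 in NT3 against 11.34, 11.39 and 11.69 in LC (difference 0.65, SE 0.14, adjusted p = 0.0031), and matrilysin (Mmp7) read 9.64, 9.77 and 9.85 in NT3 against 8.85, 8.23 and 8.43 in LC (difference 1.25, SE 0.29, adjusted p = 0.0071, lost without LC replicate 2). The call of Mmp2 was lost with its 2 probe sets averaged and in the fit of all arrays of the series. So 2 of 18 protease and inhibitor genes rose and 2 fell. Meningeal genes included Aldh1a2, which makes retinoic acid, with 9.11, 9.02 and 9.24 in NT3 against 10.68, 10.37 and 10.13 in LC (difference -1.27, SE 0.21, adjusted p = 1.2e-04). It and Slc6a13 (-0.65) were the 2 members of 16 in the basement membrane and meninges list that fell, the call of Slc6a13 being lost without NT3 replicate 2 or 3 or LC replicate 1 or 3. The basement membrane collagen genes Col4a1 (0.47) and Col4a2 (0.56) read higher in all 3 NT3 arrays than in LC without passing the test.

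Secreted regulators of growth changed in both directions. Of 26 Wnt, TGF-beta and BMP genes 4 rose and 2 fell (median 0.07). Sfrp2, a secreted Wnt modulator of fibroblasts, was the called gene of this list with the largest rise: it read 12.99, 12.92 and 12.89 in NT3 against 10.37, 10.48 and 10.37 in LC (difference 2.53, SE 0.30, adjusted p = 1.2e-06), 5.76-fold higher. Tgfb3, the isoform tied to low-scar healing in rodent skin, read 11.23, 11.49 and 11.43 in NT3 against 9.97, 10.44 and 10.08 in LC (difference 1.22, SE 0.13, adjusted p = 1.5e-07), whereas Tgfb1 (-0.21) and Tgfb2 (-0.15) were not called. Inhba, the activin A subunit, read 9.55, 9.53 and 9.46 in NT3 against 10.72, 10.71 and 11.10 in LC (difference -1.33, SE 0.19, adjusted p = 2.0e-05). The BMP antagonist gene Grem1 rose with less certainty, at 7.99, 6.84 and 7.77 in NT3 against 5.96, 6.79 and 6.59 in LC (difference 1.09, SE 0.29, adjusted p = 0.023, lost without NT3 replicate 1 or 3 or LC replicate 1 or 3). Id3 (0.50), a BMP target, was higher and Wnt5a (-0.57) lower. The list had 3 calls without NT3 replicate 1.

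Genes of the neurotrophin system were mostly not called. Ntf3, the gene for NT-3, lay under the filter on low values, with 5.12, 4.98 and 5.25 in NT3 against 5.08, 4.95 and 4.84 in LC, and the array does not see the protein in the tube. Its receptor gene Ntrk3 read 5.82, 5.38 and 5.79 in NT3 against 5.66, 5.43 and 5.43 in LC (difference 0.16, SE 0.24, adjusted p = 0.80), below the uninjured mean of 7.68. Ntrk2 (0.12, SE 0.31), Ngfr (0.35, SE 0.29) and Bdnf (0.05, SE 0.20) were not called either. In the fit of the 6 arrays alone Ntrk3 and Bdnf lay under the filter on low values and were not tested. Of 15 neurotrophic factor and receptor genes 1 rose and 0 fell, near the share of all genes, and without LC replicate 2 the list had 1 higher and 1 lower. The gene that rose was Igf1, a growth factor made by macrophages and fibroblasts as well as glia, with 13.18, 13.24 and 13.13 in NT3 against 12.51, 12.31 and 12.25 in LC (difference 0.82, SE 0.11, adjusted p = 5.9e-06).

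Neural genes showed few differences at the cut. None of the 22 neuron, 18 synaptic, 8 motor neuron, 16 astrocyte, 16 myelin, 6 oligodendrocyte precursor, 15 axon growth, 17 axon guidance and 5 ependymal genes tested was called. Uninjured cord and the other days counted in the filter on low values. In the fit of the 6 arrays alone 16 neuron, 12 synaptic, 3 motor neuron and 3 ependymal genes passed it, and 0 were called. For members that did not pass it there, the lack of a call says little. Gfap (difference 0.23, SE 0.44), Mbp (-0.05, SE 0.19) and Snap25 (0.17, SE 0.69) had wide errors beside their size, and Snap25 ranged from 9.69 to 11.04 in NT3 and from 9.77 to 11.06 in LC, against an uninjured mean of 13.84. Among 14 neural progenitor genes 2 rose. Doublecortin (Dcx), a microtubule protein of young neurons, read 7.01, 7.02 and 6.99 in NT3 against 5.40, 5.35 and 5.50 in LC (difference 1.59, SE 0.20, adjusted p = 2.6e-06), and uninjured cord had a mean of 7.44. Sox4, a factor of many immature cells, was at 0.38 (lost without any 1 of the NT3 arrays or without LC replicate 3). Other genes of young neurons and progenitors did not go with them, with Tubb3 at 0.07, Stmn1 at 0.08, Sox2 at 0.16 and Nes at -0.17. With the probe sets of each gene averaged, Sox4 lost its call and Dcx was not tested. In that fit 0 of 13 progenitor genes were called. One of 15 Schwann cell genes, Mpzl2 (-0.59), fell, near the share of all genes, and the call was lost without NT3 replicate 2 or 3 or LC replicate 2 or 3.

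Muscle genes had the largest positive differences, with an uneven LC group. Of 20 tested skeletal muscle genes 5 rose and 0 fell (median 1.75). Myl1, a myosin light chain of fast fibres, read 11.70, 11.45 and 11.75 in NT3 against 10.54, 6.60 and 5.15 in LC (difference 4.20, SE 1.26, adjusted p = 0.045). Myh2 (3.94), Acta1 (3.84), Tnnc2 (3.73) and myoglobin (Mb, 3.27) were called as well, with LC replicate 1 the highest LC array for each. The LC group was less uneven for Mb, with 6.34, 5.23 and 5.21 against 8.26, 9.38 and 8.95 in NT3. The list mean was 8.39 to 8.80 in NT3 and 7.75, 6.42 and 6.10 in LC, against 6.55 to 6.73 in uninjured cord. Some of these genes are also read in the cord itself, with uninjured means of 9.16 for Tnnc2 and 7.23 for Acta1. The 5 genes kept their calls without LC replicate 1 and lost them without any 1 of the other 5 arrays. The creatine kinase gene Ckm (1.70) and the troponin gene Tnnt3 (1.89) were not called. Skeletal muscle is not a tissue of the cord, RMA values have no true zero, and the part of muscle RNA in the other differences was not tested beyond the covariate given next.

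Cartilage collagen genes rose in NT3 too. Type II collagen (Col2a1), the chief collagen of cartilage, read 8.94, 10.38 and 9.76 in NT3 against 7.82, 6.81 and 6.22 in LC (difference 2.75, SE 0.66, adjusted p = 0.010, lost without NT3 replicate 2 or LC replicate 3). Its partner Col9a1 read 6.39, 6.98 and 7.12 in NT3 against 5.08, 5.69 and 5.10 in LC (difference 1.54, SE 0.33, adjusted p = 0.0032). Col9a1 lay near the filter on low values and was not tested without NT3 replicate 2 or 3. They were the 2 of 9 members that rose (median 0.89), and 0 fell, and without NT3 replicate 2 the list had 0 calls. The bone matrix genes Bglap (6.81, 8.27 and 8.50 in NT3 against 5.46, 4.48 and 4.84 in LC) and Ibsp (7.65, 8.06 and 7.91 in NT3 against 6.44, 5.86 and 5.46 in LC) did not overlap between the groups but missed the threshold (adjusted p = 0.13 and 0.085). With the mean of the muscle list as a covariate, a setting chosen after seeing the data, 2 cartilage, 10 cytokine and 10 hypoxia genes were called. In the same fit antigen presentation had 2 calls in place of 4 and interferon response 0 in place of 1. The muscle list had 0, which that covariate brings about by its construction.

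**Figure D3:**
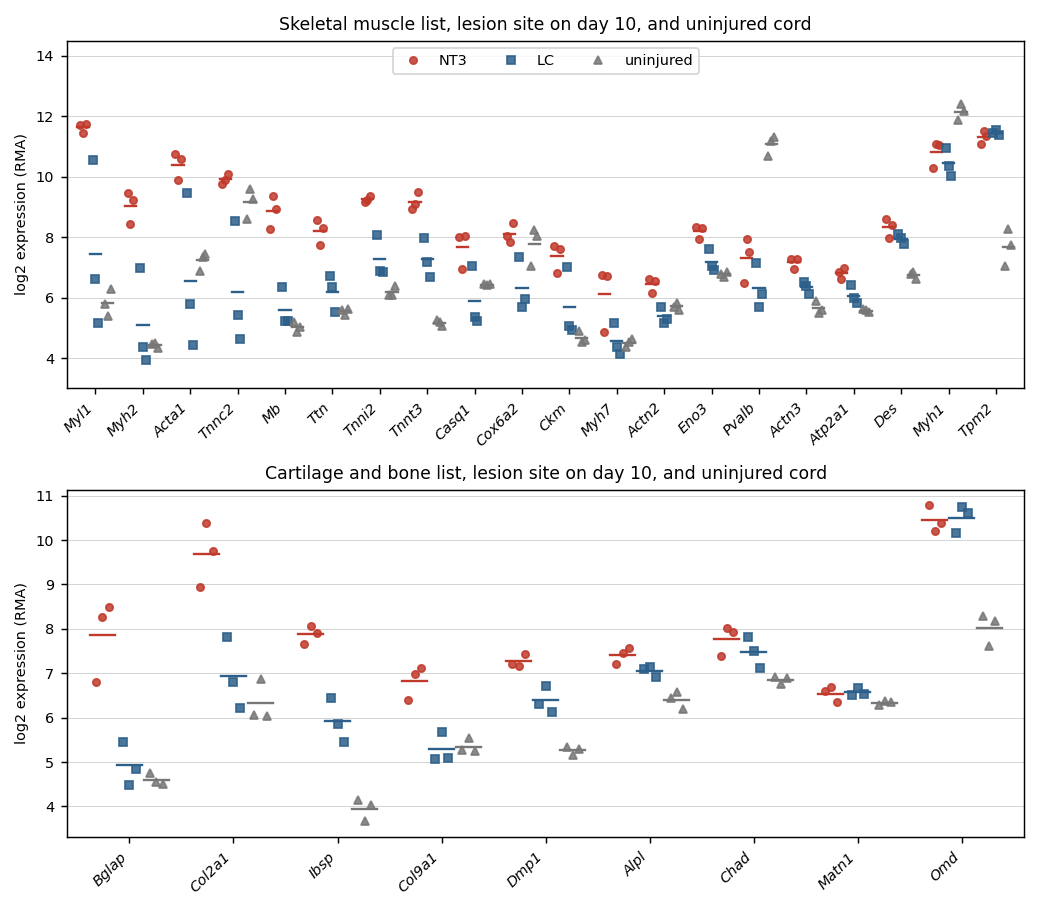
Log2 expression (RMA) of the tested skeletal muscle (top) and cartilage and bone genes (bottom) in single arrays of NT3, LC and uninjured cord, with lines for group means. In the muscle panel 1 LC array stands near NT3 for several genes, and in the cartilage panel Bglap, Col2a1, Ibsp and Col9a1 separate NT3 from LC.

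The remaining leading genes on the higher side are known from growing connective tissue and from imprinted growth control. Capn6, a calpain-like protein of embryonic muscle and cartilage in mouse, read 9.53, 9.45 and 9.51 in NT3 against 7.35, 7.54 and 6.98 in LC (difference 2.21, SE 0.16, adjusted p = 5.2e-11). Mest, an imprinted gene of mesoderm, read 8.95, 8.69 and 9.36 in NT3 against 7.0, 7.17 and 6.92 in LC (difference 1.97, SE 0.21, adjusted p = 1.6e-07). H19, an imprinted noncoding RNA beside Igf2, read 12.16, 12.62 and 12.53 in NT3 against 10.58, 10.77 and 10.09 in LC (difference 1.96, SE 0.37, adjusted p = 7.3e-04). Both imprinted genes kept their calls whichever array was left out. Ecrg4, a secreted peptide precursor, read 9.37, 9.32 and 9.82 in NT3 against 7.84, 7.48 and 7.30 in LC (difference 1.97, SE 0.23, adjusted p = 1.1e-06). Egfl6, a matrix protein with EGF repeats, read 6.76, 6.88 and 6.85 in NT3 against 4.98, 5.03 and 4.68 in LC (difference 1.93, SE 0.29, adjusted p = 4.1e-05). The uninjured means of Egfl6 (6.29) and Mest (8.55) were nearer to NT3 than to LC, while those of Capn6 (7.12) and H19 (7.32) were not.

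Whether these differences belonged to day 10 was tested against the other days at the lesion site. The day-10 difference departed from the mean difference of days 3, 20, 30, 60 and 90 in 432 of 11918 genes (3.62%), higher in 332 and lower in 100. Of the 633 genes called on day 10, 466 were not called in this test, 162 were called with the same sign and 5 with the opposite sign. That count was 142 without NT3 replicate 3, 181 without LC replicate 3 and 204 without NT3 replicate 2. In the same fit the single days gave 2145 called genes on day 3, 4030 on day 20, 2169 on day 30, 3096 on day 60 and 3450 on day 90, each from other arrays than day 10, which had the fewest.

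Among macrophage and chemokine genes the differences varied widely between days. Arg1 differed by 0.34 on day 3 and by -5.31, -4.43, -2.88 and -1.41 on days 20, 30, 60 and 90, and its departure on day 10 from the mean of all these days was 0.16 (adjusted p = 0.83). The NT3 mean of Arg1 was 11.64 on day 3 and 7.05 on day 10, while the LC means on these days were 11.30 and 9.63. Ccl2 was alike on day 3 (12.12 in NT3 and 12.03 in LC), and its day-10 difference departed from the mean of the other days by -0.73 (adjusted p = 0.043). Cxcl2 was already lower in NT3 on day 3, by -2.35. Mmp3 differed by -0.53 on day 3 and by -4.89 on day 20. Thus day 10 was the first of the 6 days on which Arg1, Ccl2, Ccl7 and Il1rn were lower in NT3, with day-3 differences of 0.34, 0.09, 0.36 and 0.95.

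Cartilage and growth genes had differences that day 10 did not share with the mean of the other days. Col2a1 rose to a mean of 9.69 in NT3 on day 10, against 6.95 in LC, and its LC mean reached 9.58 on day 30 with a wide spread (SD 2.25). The departure of its day-10 difference was 3.12 (SE 0.73, adjusted p = 0.012). Grem1 was higher in NT3 on day 10 alone, with differences of -0.56, -2.02, -0.63, -0.20 and -1.28 on the other days and a departure of 2.03 (adjusted p = 4.2e-04). Igf1 departed by 0.85 (adjusted p = 9.0e-05): NT3 exceeded LC by 0.12, 0.25 and 0.35 on days 3, 20 and 30 and lay below it by -0.55 and -0.27 on days 60 and 90. Tgfb3 was raised on days 10, 20 and 30 (1.22, 0.96 and 1.11) and differed by 0.28 and 0.11 on days 60 and 90. Mest, by contrast, exceeded LC on every day from 3 to 90 (0.70 to 2.54), and its day-10 difference was not called as different (0.26, adjusted p = 0.56). The muscle gene Myl1 differed by 0.13 on day 3 and by 3.67 to 5.14 on days 20 to 90.

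**Figure D4:**
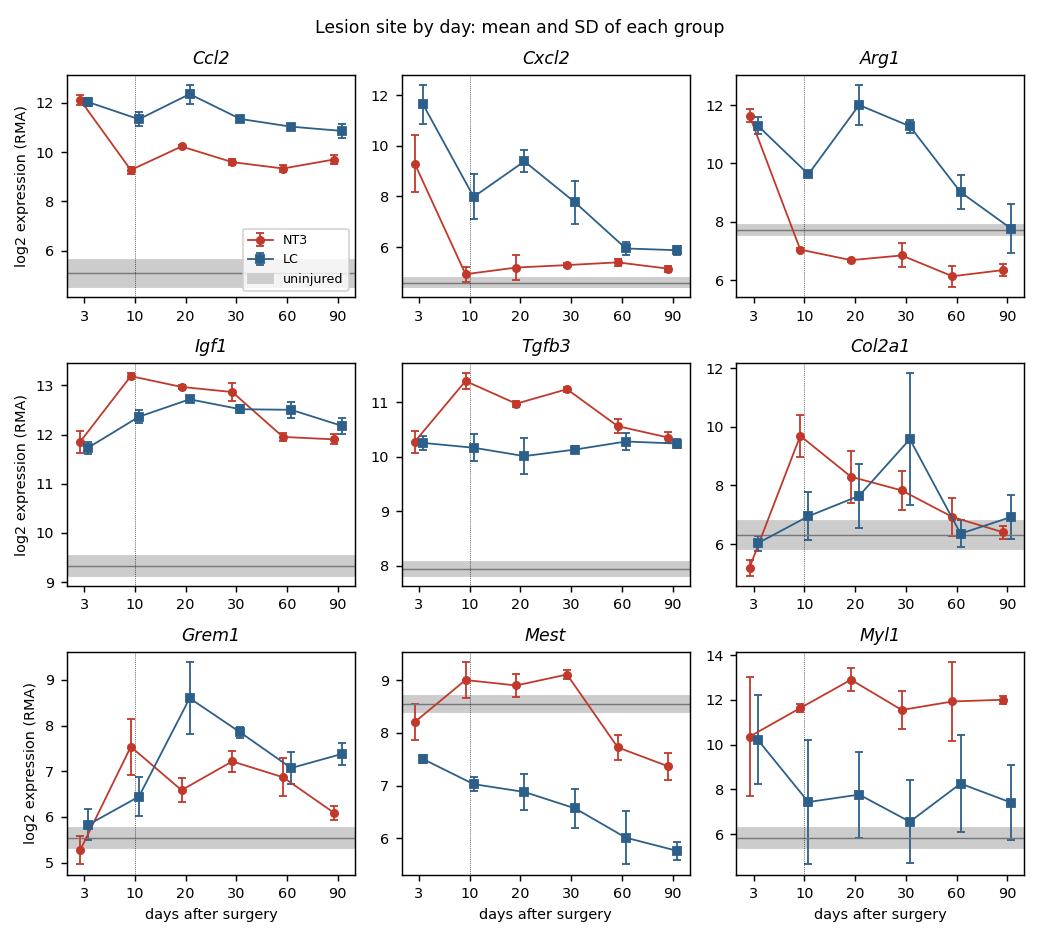
Mean and SD (3 arrays a group) of log2 expression (RMA) at the lesion site by day after surgery for 9 genes, NT3 in red circles and LC in blue squares; the grey band is the mean and SD of uninjured cord and the dotted line marks day 10. Ccl2 and Arg1 part between days 3 and 10, Igf1 crosses between days 30 and 60, and the NT3 means of Col2a1 and Grem1 peak on day 10.

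**Figure D5:**
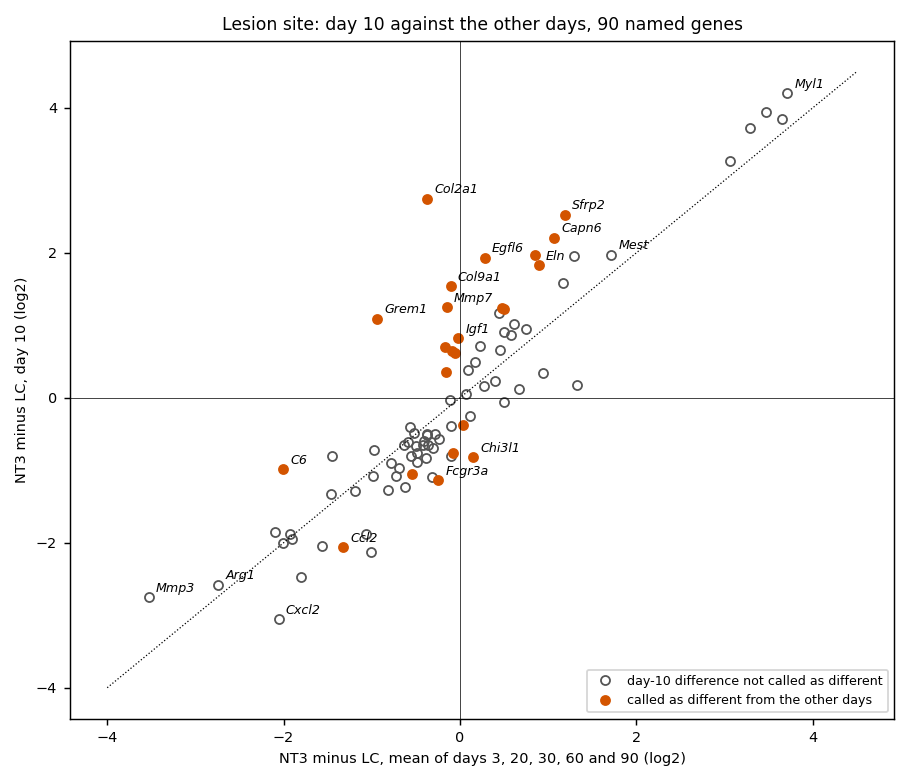
Difference between NT3 and LC on day 10 (y axis, log2) against the mean difference of the other 5 days (x axis, log2) for the 90 named genes; filled points are genes whose day-10 difference was called as different from the other days, and the dotted line marks equal values. Col2a1, Grem1, Col9a1, Mmp7 and Egfl6 lie far above the line, whereas Arg1 and Mest lie near it.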

How the data were processed

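Affymetrix rat arrays were read from RNA of 5 mm spinal cord segments. The authors' deposited table holds log2 expression values for 31099 probe sets, computed by RMA in Affymetrix Expression Console after image reading with GCOS, per the submitters' processing notes; which arrays were normalised together is not given in the sources used here. The values ran from 2.63 to 15.00 and were used as they stand. Control probe sets (57) were left out, 20826 had 1 gene symbol and 9780 had none. Symbols come from the platform annotation. Several probe sets of 1 gene were reduced to the one with the highest mean, giving 14217 genes. Those above the 40th percentile in at least 3 of the fitted arrays, 11918 genes, were tested. Probe sets without 1 symbol were tested apart.

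Group means of 42 arrays in 14 groups (39 of the lesion site and 3 uninjured) entered 1 linear model (limma 3.58.1 under R 4.3.3), which left 28 residual degrees of freedom. Contrasts gave NT3 minus LC on day 10, and this difference minus its mean over the other 5 days. Moderated tests were two-sided, with Benjamini-Hochberg adjustment and a threshold of 0.05. The procedure was tested on simulated data. The number of arrays limits the precision, and the median standard error of a difference was 0.13.

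Named genes were the 12 highest and the 12 lowest called genes without overlap of the groups, up to 4 called members of each list and a fixed set (among others Snap25, Mbp, Gfap, Aif1, Cd68, Bdnf, Ntf3, Ngfr, Ntrk2 and Ntrk3). 1 further member of that set, not listed, is not reported here. Other called members are named to complete a count and were chosen after their values were seen. The comparison, the rule and the 42 lists, written from general knowledge, were chosen with earlier results of these data known. No list was tested as a set. Lists without a call and not described in the report were giant cell (median -0.01), adipocyte (-0.01), dorsal root ganglion (0.46), immediate early (-0.07) and cholesterol synthesis (-0.12) genes.

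The fits were repeated on the 6 arrays alone, on all arrays of the series, without 2 arrays of other days that stood apart earlier and without each of the 6 arrays in turn. Other alternatives were array weights, a block for the replicate number, a prior that was trended and robust, averaged probe sets, 75th percentile scaling, quantile normalization, and a stricter filter (60th percentile) or none. Covariates for the muscle list and for beta-actin were added after seeing the data. Promoter sequences were taken from RefSeq (GRCr8).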

Additional observations from a re-analysis of the deposited data

Results flagged for a closer look

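The day-10 difference between NT3 and LC departed from the mean difference of the other 5 days in 432 of the tested genes. Values below are the day-10 difference minus that mean, on the log2 scale, from the limma contrast of this difference.

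Of the genes named by the rule and called on day 10, 23 were also called in this contrast. For connective tissue and growth genes the departure was positive: Col2a1 3.12, Grem1 2.03, Egfl6 1.65, Col9a1 1.65, Mmp7 1.4, Sfrp2 1.34, Capn6 1.14, Ecrg4 1.12, Eln 0.94, Cthrc1 0.87, Igf1 0.85, Col14a1 0.76, Mmp2 0.74, Tgfb3 0.73, Pdgfrb 0.68 and Bgn 0.51. Genes of the macrophage, chemokine, complement and haem lists departed downward, with Chi3l1 at -0.97, Fcgr3a at -0.89, Ccl2 at -0.73, Cfp at -0.68, Tlr2 at -0.51 and Slc48a1 at -0.42. The uninjured means of Chi3l1 (10.06) and Slc48a1 (10.61) lay above those of both day-10 groups. C6 was the exception among the genes lower in NT3, with a departure of 1.02, its differences being -0.98 on day 10, -0.19 on day 3 and -2.82 to -2.27 on days 20 to 90. All other genes of the 23 departed in the direction of their day-10 difference. That difference is part of the departure and was used to choose the genes, so the shared sign is largely built in.

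Among probe sets that carry no single gene symbol, 187 were called on day 10, with differences from -1.69 to 3.34. They are outside the gene table and were not named here.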

How the results depend on the processing

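With the 6 arrays alone 267 genes were called (145 higher and 122 lower) in place of 633 (294 and 339). With array weights, whose estimation stopped before it converged, the counts were 4752, and 4354 in place of 432 for the departure from the other days. One fit of all arrays of the series gave 1301 genes for the departure and a split of 461 higher and 348 lower for day 10. Leaving out 1 of the 6 arrays gave 308 to 830 calls for day 10, 142 to 460 for the departure and 80 to 272 of the unnamed probe sets (187). The lowest counts came without NT3 replicate 3 and the highest without LC replicate 1, and the cause was not tested. Scaling moved the split, to 309 higher and 429 lower under quantile normalization and 281 and 424 under 75th percentile scaling, and the muscle covariate gave 172 and 291. The other alternatives stayed within 1.5 times of the day-10 count.

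The replicate number as a block gave 669, 444 and 214 calls for the 3 tests; deviations of same-numbered NT3 and LC arrays correlated at -0.29, -0.01 and -0.20, so the numbers were not taken as pairs. The departure from the other days could not be fitted with the 6 arrays alone. Of 81 named and called genes 44 kept their call in all fits with 1 array left out that tested them, 40 in every alternative that tested them (35 of these were tested in all 19), and none changed sign.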

Other observations

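The rise of Mest and H19 led to a look at other imprinted genes, a list written after these values were seen and therefore not tested as a list. Of 22 such genes 15 were tested, 7 rose, with Mest and H19 among them, 0 fell, and all 15 differences were positive (median 0.48). Over all 11918 genes 2.47% rose, 2.84% fell and 6414 differences were positive. Plagl1, an imprinted zinc finger gene that in mouse regulates others of the group, read 10.07, 9.84 and 10.33 in NT3 against 8.54, 8.63 and 8.41 in LC (difference 1.55, SE 0.18, adjusted p = 4.7e-07 in limma). Igf2, the fetal growth factor gene beside H19, read 13.31, 12.72 and 13.07 in NT3 against 12.33, 12.16 and 11.96 in LC (difference 0.88, SE 0.19, adjusted p = 0.0027). The cell cycle inhibitor gene Cdkn1c (0.98), Meg3 (0.90) and Gnas (0.48) were called as well, while Grb10 (0.50), Ndn (0.39) and Snrpn (0.02) were not. The day-10 difference of Igf2 departed from the other days by 1.07 and that of Cdkn1c by 0.89 (adjusted p = 0.0023 and 0.0034), whereas Meg3 had a larger mean difference on the other days (1.24).

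Elastic fibre genes, likewise listed after elastin had been seen, included several called beside it. Of 19 tested, 5 rose, with elastin among them, and 1 fell (median 0.31), against 2.47% and 2.84% of all genes. Fbln5, needed to assemble elastic fibres, read 10.58, 10.25 and 10.39 in NT3 against 8.25, 9.15 and 8.97 in LC (difference 1.62, SE 0.23, adjusted p = 1.8e-05). The microfibril genes Mfap2 (1.52) and Mfap4 (1.07) and the TGF-beta binding gene Ltbp3 (0.58) rose, and Fbln2 (-0.79) fell, while the fibrillin gene Fbn1 (-0.06) and the cross-linking gene Lox (0.03) were not called. The list of the interleukin-1 pathway was also written after Il1rn, Il1b, Il18 and Il33 had been seen. Of its 13 tested genes 7 fell and 0 rose, against 2.84% and 2.47% of all genes. Those 4 were among the 7, beside the decoy receptor gene Il1r2 (-1.76), the co-receptor gene Il1rap (-0.49) and the processing enzyme gene Casp1 (-0.53), while the signalling receptor gene Il1r1 (0.10) was not called.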
